A study of Schizosaccharomyces pombe with 2 samples.

Results

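In the compact genome of the fission yeast Schizosaccharomyces pombe, 1507 pairs of neighbouring protein-coding genes lay in tandem at close range. A pair was taken when both genes lay on the same strand of the RefSeq annotation, when at most 500 nt separated the annotated end of the upstream (first) gene from the annotated start of the downstream (second) gene, and when no gene lay between them on that strand. Of the 5113 coding genes, 2515 (49.2%) belonged to a close pair, and 499 of these were the second gene of one pair and the first gene of the next. Without the limit on the gap there were 2286 such neighbours. The pairs formed 1008 runs, of which 665 held 2 genes and the longest 8, and they fell on chromosomes I (715 pairs), II (547) and III (245). The gap had a median of 226 nt.

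Polyadenylated 3′ ends of total RNA were counted, by position and strand, in 1 library from a strain named nmt1-SEB1, in which the nmt1 promoter drives seb1, and in 1 library from a wild-type strain. Minimal medium plus thiamine, a repressor of that promoter, was used for both strains. The labels speak of a knock-out and the series design of a knockdown, and the name of the construct is used here. With 1 library per group no difference has a replicate check: each test and interval compares the reads of the libraries, covers counting error only, and does not compare conditions.

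When RNA polymerase II passes a poly(A) signal, the transcript is cleaved and polyadenylated and the polymerase is released further downstream. In a tandem pair a polymerase that is not released can run into the promoter and body of the next gene, which in other systems can lower that gene's own transcription, an effect called transcriptional interference. Seb1, the fission yeast relative of Nrd1, binds the polymerase and recognises GUA-containing RNA. A poly(A) read shows where a transcript ended, not where it began. Reads past the second gene's stop codon therefore cannot be divided between transcripts that started at the second gene and those that started at the first.

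The libraries held 3376142 (nmt1-SEB1) and 2702105 (wild type) reads, of which 3373116 and 2697953 fell on the 3 nuclear chromosomes. Levels are given as RPM, reads scaled to the nuclear total of the library, where 1 read was worth 0.296 and 0.371. The seb1 gene itself (chromosome I, 959885 to 962227) is in no close pair. It had 819 reads past its stop codon in nmt1-SEB1 against 1808 in wild type, an RPM ratio of 0.362 (95% interval 0.333 to 0.394).

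The gap sequences below belong to pairs whose first gene ended almost wholly inside the gap in nmt1-SEB1, and both are short enough to show in full. They are the reference sequence of the strand of the genes, 5′ to 3′, from the first base past the annotated end of the first gene to the last base before the second gene. Capitals mark TGTA, the DNA form of a GUA-containing motif, and AATAAA, the canonical poly(A) signal.
wos2 to abc1 (chrI:4467687-4467886, minus strand): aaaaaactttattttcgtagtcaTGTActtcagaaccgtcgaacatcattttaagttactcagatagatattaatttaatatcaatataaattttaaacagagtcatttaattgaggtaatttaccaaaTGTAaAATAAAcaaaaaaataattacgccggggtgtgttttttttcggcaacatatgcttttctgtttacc
rli1 to doa10 (chrII:4167262-4167478, plus strand): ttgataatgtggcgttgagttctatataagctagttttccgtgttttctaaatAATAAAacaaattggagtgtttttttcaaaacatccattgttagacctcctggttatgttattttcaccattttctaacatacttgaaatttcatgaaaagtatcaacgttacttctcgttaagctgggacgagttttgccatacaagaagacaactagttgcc
The first gap is 200 nt long and holds TGTA at positions 24 and 130 and AATAAA at position 135, counted from the first base past the annotated end. The position with the most nmt1-SEB1 reads was 102 nt past that end, with 2886 reads against 11 in wild type. The gap after rli1 is 217 nt long and holds no TGTA, with AATAAA at position 54. Its most used position in nmt1-SEB1 lay at 84, with 818 reads against 13.

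In the pairs as a whole, reads of nmt1-SEB1 were sparser in the annotated 3′ UTRs and denser in the gaps and in the 5′ UTRs of the second genes. The gaps held 207167 reads in nmt1-SEB1 against 47354 in wild type, 18.2% and 4.04% of the reads of all pairs, and the density per kb differed 3.50-fold. Of the gaps, 1329 held a read in nmt1-SEB1 and 959 did in wild type. The 3′ UTRs of the first genes held 272880 and 440348 reads, a density ratio of 0.496. The first genes up to their stop codon held 36090 and 18848 reads, a ratio of 1.53, so of the parts of the first gene the 3′ UTR alone was sparser.

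Past the gap the same order held. The 5′ UTRs of the second genes took 22357 reads in nmt1-SEB1 against 3928 in wild type, a density ratio of 4.55, and reads fell in 602 of these UTRs against 251. Of the wild-type reads there, 40.2% belonged to a single second gene, ish1, whose upstream neighbour is hba1. Without the 77 pairs over which another gene of the same strand lies, the ratio was 7.54. The coding parts of the second genes took 38147 and 14228 reads, a ratio of 2.14, with reads in 1226 and 1038 of them. The 3′ UTRs of the second genes took 269913 and 486232 reads (ratio 0.444), and the windows past their ends 289984 and 159888 (ratio 1.45). That last ratio rested on a few pairs: without the 16 pairs with the highest totals it was 2.42, while the ratio of the gaps was 2.93 and that of the coding parts 2.15.

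**Figure D1:**
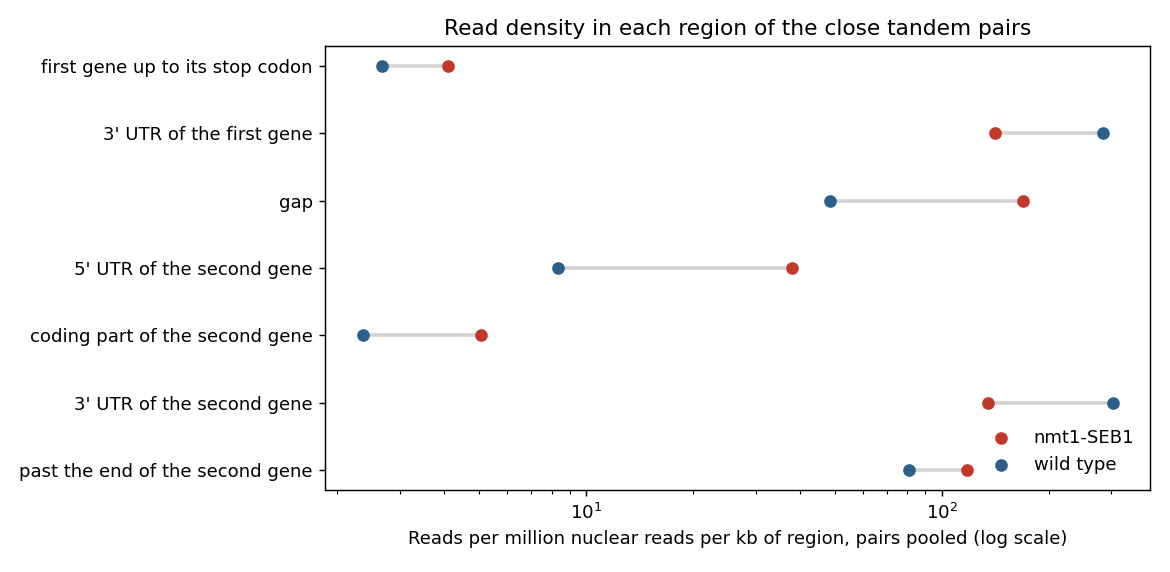
Read density in each region of the 1507 close tandem pairs, pooled over pairs, in RPM per kb (x axis, log scale), with 1 point per library. Gaps, 5′ UTRs and coding parts of the second genes are denser in nmt1-SEB1 (3.50, 4.55 and 2.14 times) and both 3′ UTRs are sparser (0.496 and 0.444).

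Averaged over pairs with equal weight, the extra ends of nmt1-SEB1 declined with distance and met the wild-type level inside the second gene. In 1178 pairs with at least 20 reads between the stop codons of the first and second gene in each library, the second 100 nt past the first gene's end held 9.33% of the pair's reads per 100 nt in nmt1-SEB1 and 2.20% in wild type. In the last 100 nt before the second gene the values were 12.4% and 4.64%. Within the second gene, its first 100 nt held 4.72% and 0.930%. The next 100 nt held 2.92% and 0.909%, and those after it 2.09% and 1.08%. From 300 to 400 nt the values were 0.946% and 0.802%, and from 500 to 600 nt 0.961% and 0.944%. Beyond about 300 nt into the second gene the profiles therefore lay close together, and the wild-type profile was about level from the second gene's start onward.

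**Figure D2:**
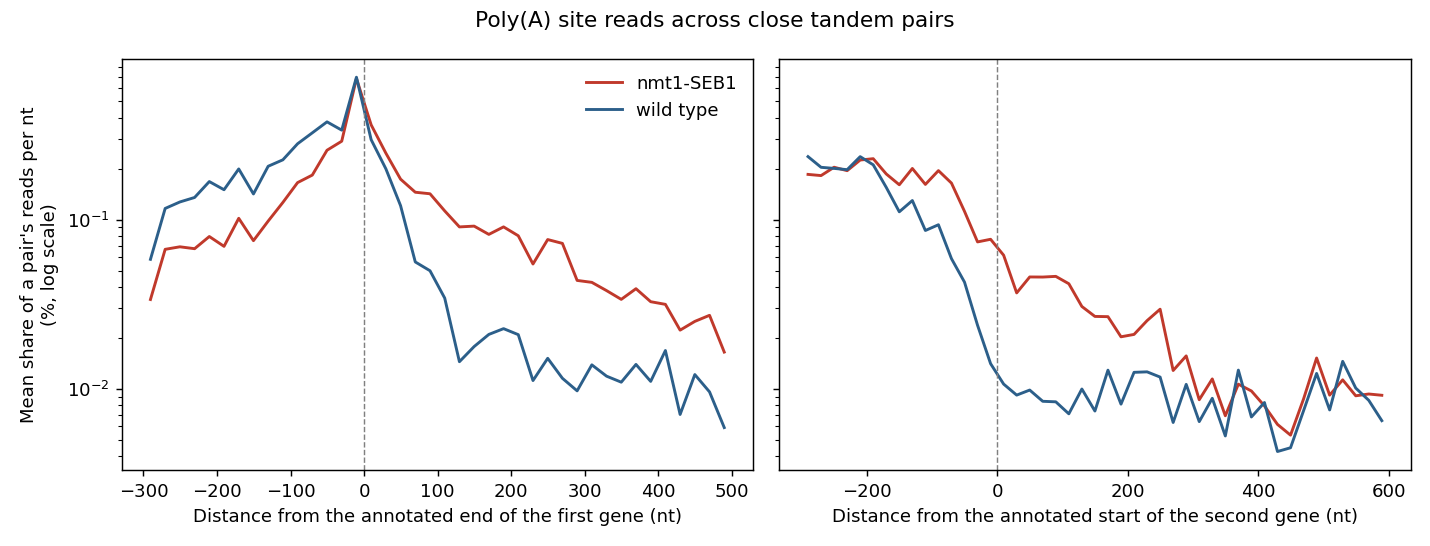
Mean share of a pair's reads per nt (y axis, log scale, bins of 20 nt) around the annotated end of the first gene (left) and the annotated start of the second gene (right), in 1178 pairs. The nmt1-SEB1 line stays above wild type past the first gene's end and joins it roughly 300 nt into the second gene.

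The question of where the first genes ended was put to each pair through the gap share, the reads in the gap as a percentage of the reads from the first gene's stop codon to the second gene. The test was a two-sided Fisher's exact test, Benjamini-Hochberg adjusted over all coding genes with at least 20 reads in each library, and called at adjusted p under 0.05 and 10 points or more. Of 1038 first genes tested, 534 had a higher gap share in nmt1-SEB1, 4 a lower one and 500 neither. Over all coding genes, where the window ran to the next gene or 500 nt, 51.4% were called higher and 0.541% lower, so the 534 (51.4%) are the genome-wide share. The median gap share of the first genes was 30.1% in nmt1-SEB1 against 2.10% in wild type. In 917 of the 1038 it was above the wild-type value. Another 137 first genes have no annotated 3′ UTR and were not tested, and the remaining ones had too few reads or no gap. At the limit of the rule, fmd2 and dea2 lie 500 nt apart, with 292 gap reads against 5, and 3 pairs just outside it lie 503 nt apart. The windows past their first genes held 187 reads against 24 (rps801), 11 against 1 (cdc25) and 1198 against 1342 (sua1).

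The call depended on the room the gap gave. With gaps of 100 nt or less, 34 of 138 first genes (24.6%) had a higher share. The numbers were 133 of 271 (49.1%) at over 100 to 200 nt, 155 of 275 (56.4%) at over 200 to 300 nt and 212 of 354 (59.9%) at over 300 to 500 nt. First genes of tandem pairs more than 500 and up to 2000 nt apart had 245 of 423 (57.9%). A read cannot be counted in the gap beyond the start of the second gene, so the short classes are limited by the measure.

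In the 6 pairs with the largest rise, the reads of the first gene lay in its 3′ UTR in wild type and in the gap in nmt1-SEB1. For wos2 (SPAC9E9.13), a p23 co-chaperone of Hsp90, followed by the ABC transporter gene abc1 (SPAC9E9.12c), the 3′ UTR held 68 reads in nmt1-SEB1 against 678 in wild type. The gap held 6326 and 35, a gap share of 98.9% (Wilson 95% interval 98.7 to 99.2) against 4.91% (3.55 to 6.75). The most used position of wos2 lay 48 nt past the stop codon in wild type and 451 nt past it in nmt1-SEB1. For rli1 (SPBC14F5.06), an iron-sulfur ATPase, followed by the ubiquitin ligase gene doa10 (SPBC14F5.07), the 3′ UTR held 226 and 1352 reads and the gap 4489 and 51 (95.2% against 3.64%). For erg10 (SPBC215.09c), an acetyl-CoA acetyltransferase, followed by arg4 (gap chrII:4045332-4045722), the 3′ UTR held 16 and 130 reads and the gap 333 and 2 (95.4% against 1.52%; two-sided Fisher's exact test, adjusted p = 3.73e-95). In each of these pairs most reads lay in the UTR in wild type and in the gap in nmt1-SEB1, which ranking by gap share selects. The totals also differed. Reads from the stop codon to the second gene had an RPM ratio of 7.17 for wos2, 2.69 for rli1 and 2.11 for erg10.

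The other 3 showed the same change in shares. Their RPM ratios from the stop codon to the second gene were 0.483 (eca39), 1.44 (rpp101) and 2.31 (rps1201). For eca39 (SPBC428.02c), a branched-chain aminotransferase, before the nucleoporin gene nup107 (gap chrII:442004-442343), the 3′ UTR held 9 and 509 reads and the gap 312 and 23 (97.2% against 4.32%). For rpp101 (SPAC644.15), a ribosomal stalk protein, before rna15 (gap chrI:2701214-2701616), the 3′ UTR held 113 and 1253 reads and the gap 2225 and 47 (95.2% against 3.62%). Its main position lay 26 nt past the annotated end, and with the gap counted from 25 nt past that end the rise fell from 91.6 to 48.4 points. For rps1201 (SPCC962.04), a small-subunit ribosomal protein, before ast1 (gap chrIII:553841-554322), the 3′ UTR held 32 and 122 reads, and the gap 320 and 0. Reads also ended beyond this gap: 283 against 13 ended between the start and the stop codon of ast1, while only 7 and 4 reads lay past the stop codon of ast1. At which of these genes their transcripts began was not tested.

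Falls were rare, and 2 of the 4 had at least 100 reads in each library. For hub1, a ubiquitin-like modifier, before the calcium ATPase gene pmr1, the gap share was 6.45% in nmt1-SEB1 against 41.2% in wild type, from 8 and 42 gap reads. For SPBC1604.04, a thiamine pyrophosphate transporter, before pgi1 (glucose-6-phosphate isomerase), it was 63.0% and 95.8%, from 85 and 159 gap reads. Most gap reads of all in nmt1-SEB1 followed SPAC637.03, an uncharacterized gene, before ypp1: 25913 against 72. There the gap share was already 62.1% in wild type (99.2% in nmt1-SEB1). The main position lay 283 nt (nmt1-SEB1) and 293 nt (wild type) past the annotated end. From the stop codon to ypp1 lay 26111 reads against 116, an RPM ratio of 180. The next most gap reads were those after cdc48, the ubiquitin-dependent AAA ATPase, before rst2, a transcription factor for glucose starvation, with 8642 against 79. In that pair 241 reads against 3 ended in the 5′ UTR of rst2.

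**Figure D3:**
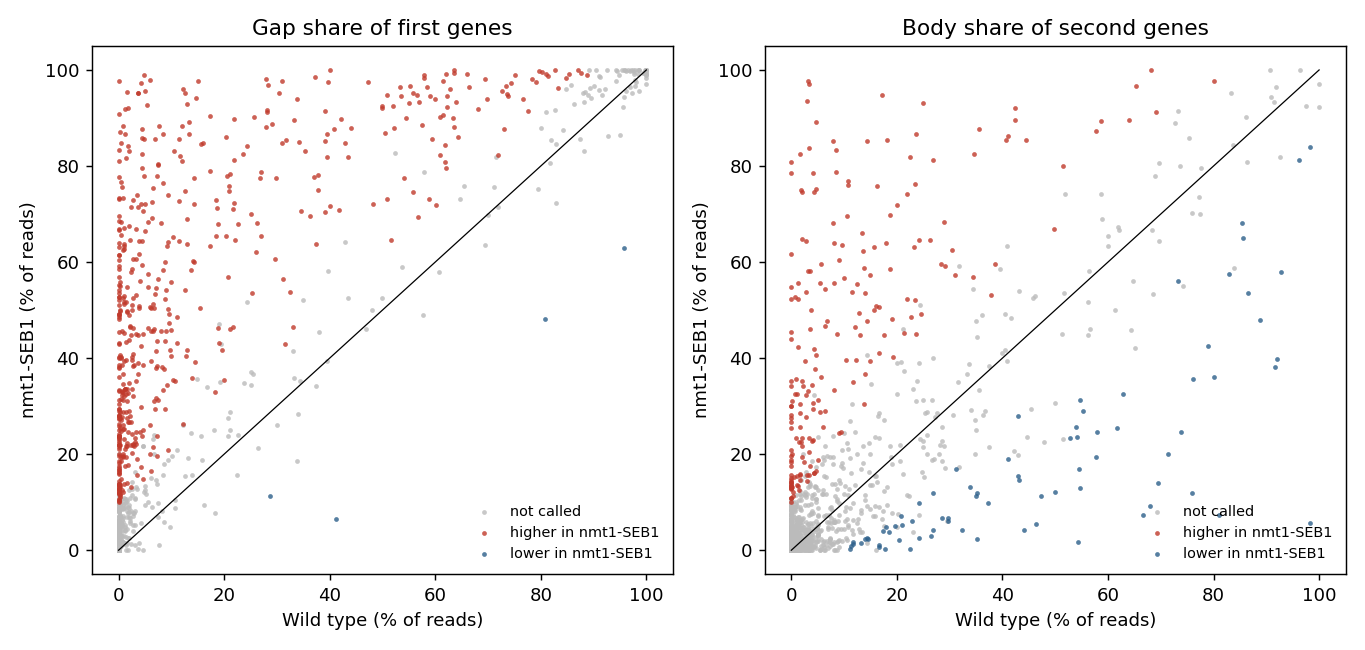
Left, gap share of the 1038 first genes tested; right, body share of the 1223 second genes tested, each with wild type on the x axis and nmt1-SEB1 on the y axis (% of reads), 1 point per gene, coloured by call. On the left 534 genes are called higher and 4 lower, and on the right 205 and 77.

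Letters past the annotated end were searched in the first 100 nt, in the sense of the gene and on the other strand. TGTA stood in the sense window of 59.6% of all 5112 coding genes with such a window and of 62.8% of the 1278 first genes with a gap of 100 nt or more. It stood in 68.3% of first genes with a higher gap share and in 67.3% of those tested but not called. On the other strand the 4 values were 41.8%, 41.3%, 41.1% and 38.8%. GTA, which every TGTA contains, stood in the sense window of 89.8%, 89.7%, 94.0% and 92.9%, and on the other strand of 77.6%, 81.3%, 82.4% and 81.1%. AATAAA stood in 17.1%, 17.1%, 17.0% and 14.6% in the sense of the gene and in 19.7%, 24.6%, 24.6% and 24.2% on the other strand. Called and uncalled first genes differed by about 1 point for TGTA and GTA.

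More reads ended inside the second genes, between their annotated start and their stop codon, in nmt1-SEB1 than in wild type. The reads there (body reads) were called higher in nmt1-SEB1 when their RPM ratio was at least 2 with a 95% interval above 1, and lower at 0.5 or less with an interval below 1, among genes with at least 20 such reads over both libraries. The body read measure was added after the data had been seen. Of 563 second genes that passed this filter, 300 (53.3%) were higher and 70 (12.4%) lower, against 36.1% and 19.7% over all coding genes. With counts under 3 set to 3 in each library, their median log2 ratio was 1.36, and that of all coding genes 0.491. In second genes of tandem pairs more than 500 and up to 2000 nt apart, 75 of 191 (39.3%) were higher. In genes whose upstream neighbour lies on the other strand, 168 of 737 (22.8%) were higher. A gene can pass the filter through 1 library, and the classes did not pass alike. The filter passed 563 of 1507 close second genes and 191 of 657 more distant ones. Of genes with the neighbour on the other strand it passed 737 of 2770. A gene that passes through its nmt1-SEB1 reads is more easily called higher. The counts therefore describe only the genes that passed and cannot by themselves rank the classes or set them apart from the background.

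The pooled densities, which need no filter, followed the same order. In 5′ UTRs the density ratio of nmt1-SEB1 to wild type was 4.55 for second genes of close pairs, 2.12 for second genes more than 500 and up to 2000 nt from the first and 1.11 for genes with a neighbour on the other strand. In coding parts the ratios were 2.14, 0.890 and 0.875, and 1 gene held 33.3% of the wild-type coding reads behind the 0.890. The first genes of close pairs, 499 of which are the second gene of another pair, had 2.06 and 1.33. No test over replicates stands behind these differences between classes.

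As a share of a gene's own reads (body share, the reads up to the stop codon over these and the reads past it), 205 of 1223 second genes (16.8%) were higher in nmt1-SEB1 and 77 (6.30%) lower, against 10.2% and 8.36% over all coding genes. The same two-sided Fisher's exact test and limits were used. Coding genes that are second in no close pair had 202 of 2770 (7.29%) higher. The median body share of the second genes was 5.21% in nmt1-SEB1 against 2.44% in wild type. By gap length, higher body shares were 35 of 186 (18.8%) up to 100 nt, 67 of 329 (20.4%) at over 100 to 200 nt, 47 of 302 (15.6%) at over 200 to 300 nt and 56 of 406 (13.8%) at over 300 to 500 nt. Where the first gene's gap share was higher, 91 of 426 second genes (21.4%) had a higher body share. Where it was not called, there were 70 of 405 (17.3%).

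The 4 second genes with the largest rise in body share each had most of their extra ends in 1 cluster near their start. The second gene after inv2 (beta-fructofuranosidase) is sec17 (SPAC959.02), an alpha-SNAP protein of membrane fusion, across a gap of 2 nt (chrI:3388220-3388221). In its coding part 3092 reads ended in nmt1-SEB1 against 5 in wild type, a body share of 93.6% against 3.03%. Together with its 5′ UTR, 3103 reads ended before the stop codon, and 3089 of these lay within 24 nt of a position 11 nt past the start codon. Past the stop codon sec17 had 211 and 160 reads, an RPM ratio of 1.05 (95% interval 0.855 to 1.30). The rise was not confined to sec17: inv2 held 709 reads against 5 up to its own stop codon, and 39 and 24 in its 3′ UTR.

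For mtd1 (SPBC1711.04), a methylenetetrahydrofolate reductase gene across a 42 nt gap from emc3 (chrII:2139749-2139790), the coding part held 2594 reads and 25 (body share 83.6% against 3.41%). A single position 29 nt past the start codon held 2519 of them, and 7 in wild type. Past its stop codon mtd1 had 508 and 709 reads. For ase1, which cross-links antiparallel microtubules, the 5′ UTR held 219 and 5 reads (body share 85.2% against 7.92%), and 40 and 93 reads lay past the stop codon. For ypp1, whose upstream gap carried the 25913 reads, the 5′ UTR held 271 and 1 reads (83.3% against 8.48%), and past the stop codon lay 58 and 151. The cluster of ypp1 adjoins the peak of that 302 nt gap. Their main positions lay 315 and 283 nt past the end of SPAC637.03, and 25210 nmt1-SEB1 reads lay within 24 nt of the latter. Whether the cluster is separate from that peak was not tested. A window of 24 nt to either side of the main position held 93.0% of the body reads of ase1 and 85.5% of those of ypp1. The clusters of sec17 and mtd1 were in the coding part and those of ase1 and ypp1 in the 5′ UTR.

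**Figure D4:**
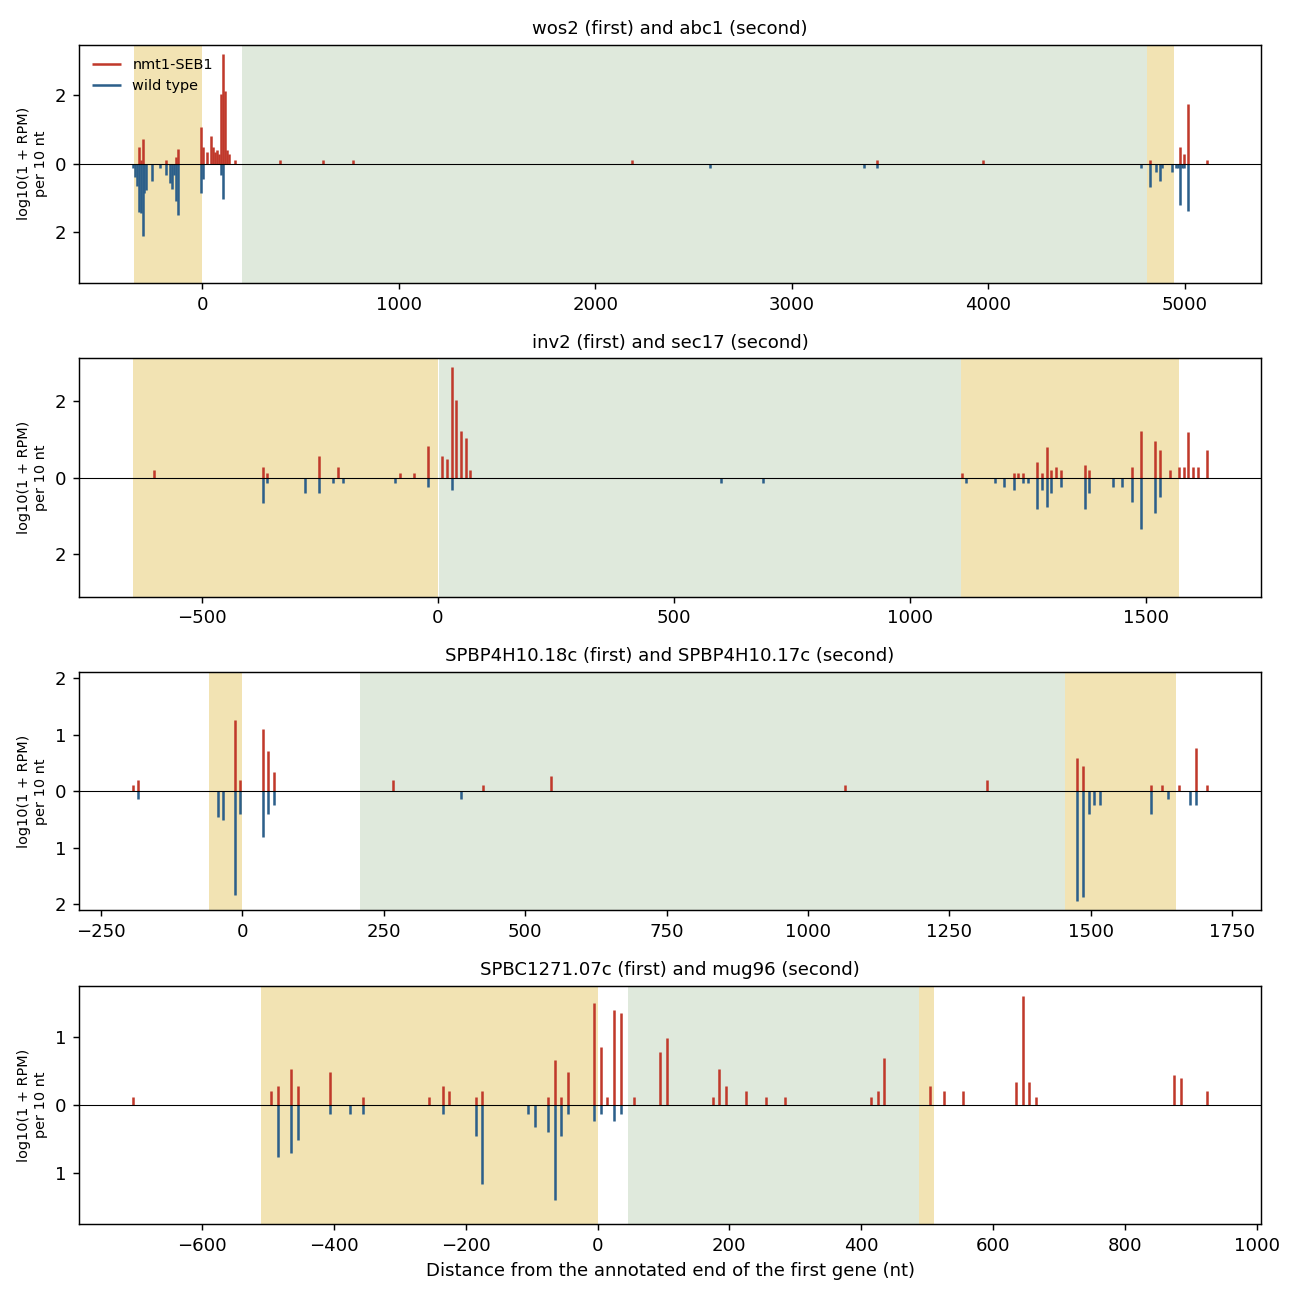
Reads along 4 named pairs, as log10(1 + RPM) per 10 nt, with nmt1-SEB1 upward and wild type downward, against distance from the annotated end of the first gene (nt); tan marks 3′ UTRs and green the second gene up to its stop codon, and each panel has its own scale. The nmt1-SEB1 cluster lies in the gap after wos2 (6326 gap reads against 35) and at the start of sec17 (3092 against 5); SPBP4H10.17c has 36 reads against 460 past its stop codon, and mug96 161 against 0.

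Whether second genes lost their own 3′ ends was read from the reads past their stop codon, in a window that closed 1000 nt beyond the annotated end or at the next gene. Of 1357 second genes with at least 20 reads over both libraries, 334 (24.6%) were higher in nmt1-SEB1 by the limits used for body reads, 237 (17.5%) lower and 786 neither. Over all coding genes 25.3% were higher and 18.8% lower, so close second genes were called about as often as genes at large. Their median log2 ratio was 0.19, and that of all coding genes 0.15. The first genes had 300 higher and 263 lower of 1308, with a median of 0.09. Second genes more than 500 and up to 2000 nt from the first had a median of 0.19, and genes with a neighbour on the other strand 0.12. With the window past the annotated end cut to 200 nt, 246 second genes were higher and 293 lower, while over all coding genes 19.6% were higher and 23.6% lower.

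The reads past the second genes' stop codon were next set against the reads that ended ahead of it. Where the first gene's gap share was higher, 131 of 478 second genes were higher and 85 (17.8%) lower, with a median log2 ratio of 0.23. Where it was not called, 106 of 451 were higher and 71 (15.7%) lower, with a median of 0.21. By quartiles of the difference in gap and body reads (RPM, nmt1-SEB1 minus wild type), the medians were 0.17, 0.04, 0.19 and 0.29 from the lowest quartile to the highest, and 16.2%, 18.3%, 18.0% and 17.4% were lower. Across 1353 pairs Spearman's rho between that difference and the second gene's log2 ratio was 0.02. Across 929 pairs it was -0.02 for the points of gap share. Pairs share libraries and genes, so these are descriptions without a p.

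**Figure D5:**
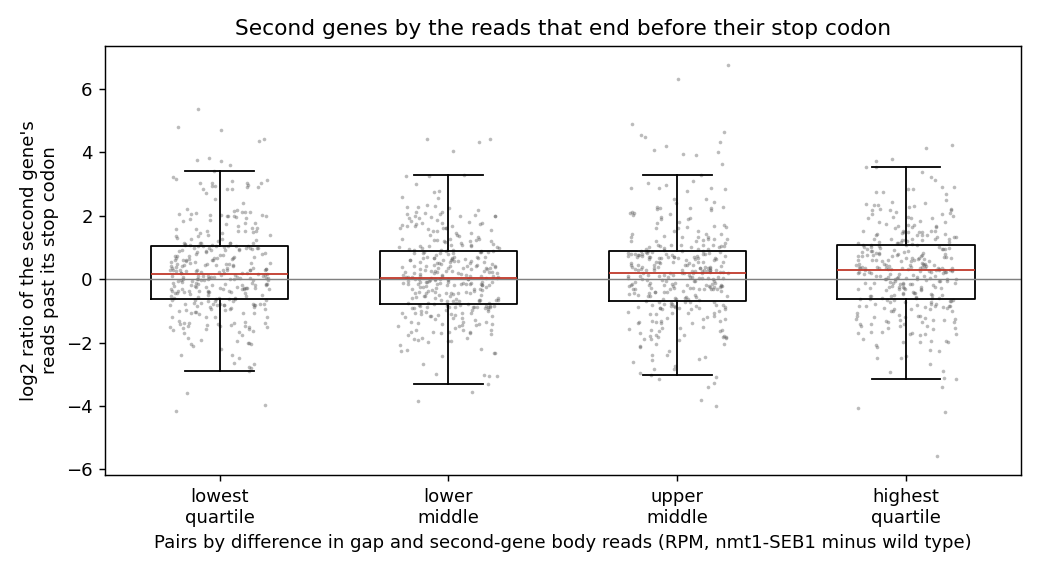
The log2 ratio (nmt1-SEB1 over wild type) of the second gene's reads past its stop codon, by quartiles of the difference in gap and body reads; points are pairs with such reads in both libraries, boxes the middle of the values with the median in red, and whiskers reach to 1.5 times the box. The medians are 0.17, 0.04, 0.19 and 0.29.

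The second gene's ratio also showed little relation to that of the first. Across 1165 pairs Spearman's rho between their log2 ratios was 0.02. The median log2 ratio of second genes was 0.29 behind first genes that were higher, 0.11 behind those that were neither and 0.22 behind those that were lower. Among 263 second genes with higher body reads, 82 (31.2%) were higher past the stop codon and 48 (18.3%) lower, with a median of 0.38. Where body reads were not called, 42 of 173 (24.3%) were higher, with a median of 0.15, and where they were lower, 17 of 68, with a median of 0.12. Body share cannot be used for this reading, because the reads past the stop codon are part of its denominator.

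The pairs with the largest changes at the second gene went in both directions, and by the rule for naming them each had a called higher gap share at its first gene. Lowest was SPBP4H10.17c, a carboxyl methyl esterase gene, with 36 reads past its stop codon in nmt1-SEB1 against 460 in wild type (log2 ratio -4.00), and another gene of the same strand lies over that pair. For pex14, a peroxisomal import protein, 18 and 151 reads lay past the stop codon (-3.39). In that pair the gap after abh1 held 67 reads and 2, and the 5′ UTR of pex14 held 32 and 1. For rps2802, a small-subunit ribosomal protein gene after msh6, there were 89 and 694 reads (-3.29) and 40 against 1 in its coding part. With only coding genes ending the windows, the log2 ratios of pex14 and rps2802 were -2.58 and -2.31.

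Both other genes of the lowest 5 lay, by the rule for naming them, behind a first gene with a higher gap share. For rcl1, an rRNA processing gene after cpn1, 783 and 5376 reads lay past the stop codon (-3.10), with 47 and 12 in the gap and 0 in its coding part in both libraries. The main position of cpn1 was at its annotated end in both libraries. Within 24 nt of that position lay 116 of 120 and 82 of 83 reads, so most of these gap reads were close to the annotated end. For sck2, a kinase of the S6K family after pik1, there were 36 and 236 reads (-3.03), with 29 and 0 in the gap and 13 and 7 in its coding part.

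At the other end, mug96, a gene named for its upregulation in meiosis, had 161 reads past its stop codon in nmt1-SEB1 against 0 in wild type. With the count of 0 set to a floor of 3 reads in that library, it was at least 42.9-fold higher. Its coding part held 79 reads and 0, and the 46 nt gap before it 171 and 4. Of the 161 reads, 3 lay in the annotated 3′ UTR of mug96 and 158 past its annotated end. SPAC6B12.04c, an aminotransferase gene after ies2, had 1193 and 12 reads (6.31), of which 1191 and 12 lay in its annotated 3′ UTR, and without positions before A-rich sequence its log2 ratio was 6.91.

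In the other 3, as in mug96, nearly all nmt1-SEB1 ends downstream of the stop codon lay beyond the annotated end. SPBP8B7.26 after cyp4 had 1499 and 29 reads past its stop codon (5.37), of which 1465 and 9 lay past the annotated end. Without positions before A-rich sequence its log2 ratio was 4.25. For pil2, an eisosome protein, after rad55 there were 293 and 11 (4.41), with the main position 552 nt past the stop codon. The annotation of pil2 has no 3′ UTR, so any read past its stop codon is past its annotated end, in wild type too. For tpp2, a tripeptidyl-peptidase, after gid10 there were 1783 and 69 (4.37), of which 1779 and 55 lay past the annotated end. Within 200 nt of its end the log2 ratio of tpp2 was -2.76, so its direction depended on reads further downstream. For pil2 the 200 nt window gave no ratio. That window leaves out its main position, within 24 nt of which lay 267 of its 293 nmt1-SEB1 reads.

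The second genes ended past their own annotated end about as often as coding genes at large (51.4% called higher). Of 1062 second genes tested, 523 (49.2%) had a higher share of reads past that end and 7 a lower one, with medians of 28.7% and 2.47%. In 196 pairs both genes had a higher share, while behind such first genes 177 second genes were neither and 1 lower. Behind first genes called neither, 176 second genes were higher, 192 neither and 2 lower. Higher calls of second genes were thus about as frequent behind either kind of first gene.

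Cytosolic ribosomal protein genes, of which the annotation holds 141, were 27 times the first gene of a close pair and 50 times the second. Of 26 first genes tested, 17 had a higher gap share and 0 a lower one, with a median difference of 32.5 points (all coding genes, 51.4% higher and 0.541% lower). Past the stop codon 13 of 26 first genes were lower and 3 higher (median log2 ratio -1.01), and 29 of 49 second genes were lower and 7 higher (-1.18). Over all coding genes 18.8% were lower and 25.3% higher. Of 49 second genes 1 had a higher body share and 1 a lower one, against 10.2% and 8.36% over all coding genes. Lower calls past the stop codon outnumbered higher ones in either place in a pair.

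Among those with the most reads, rps1601 had 5986 reads past its stop codon in nmt1-SEB1 against 22278 in wild type, with a gap share of 33.6% against 1.64%. Behind it, 318 reads ended in the body of cdk11, a cyclin-dependent kinase gene, against 1 in wild type, and 78 against 12 past its stop codon. For rpl1902 before mug122 there were 2760 and 15066 reads, and the 5′ UTR of mug122 held 171 and 1. For rps27, the second gene after rps29 and the first before rlp1, there were 4665 and 9135 reads, and 220 reads against 1 ended in the body of rlp1. For rpl22 after SPAC11E3.14 there were 18273 and 2049 reads past the stop codon (log2 ratio 2.83), but its annotated 3′ UTR held 509 and 2010, and the window past its end 17764 and 39. The second gene rpl2401 after sen1 had 3896 and 16272 (-2.38), and rpl901 after mrp5 5136 and 14486 (-1.82).

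Of 24 cleavage, polyadenylation and termination factor genes, 10 were first and 7 second in a close pair. Of 7 first genes tested, 3 had a higher gap share. Past the stop codon 4 of 8 first genes were lower and 0 higher (median log2 ratio -1.11), and 2 of 6 second genes were lower and 2 higher (0.31). The endonuclease gene ysh1 had 228 and 454 reads, and the body of fsf1 behind it held 72 reads against 6. For ptf1 the gap share was 13.5% against 0%, from 237 and 353 reads. The second genes cft2 after SPBC1709.16c and pla1, the poly(A) polymerase gene, after gta1 had 565 and 137 (1.72) and 75 and 180 reads (-1.59). The counts of this list are too small to set beside the background.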

How the data were processed

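The authors deposited, for each library, raw counts of poly(A) site-supporting reads per position and strand, with no normalization. Bowtie2 and the genome build ASM294v2 were used for alignment per the submitters' processing notes. How reads were filtered is not given in the sources used. The labels' protocols speak of RPM, but the deposited values are whole counts. No value column belonging to another sample was found. Positions were used as deposited and may be off by 1 nt.

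Gene models came from the RefSeq annotation, whose header gives a later version name of the same assembly. Deposited positions stayed within its chromosome lengths, and in every window of 500 kb at least 9.86% of reads ended within 25 nt of an annotated coding end. The annotation limits every region: a wrong 3′ end moves reads between UTR and gap.

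Gap share, body share, body reads and reads past the stop codon were computed for all coding genes, with Fisher's exact test (Benjamini-Hochberg adjusted), Wilson intervals for shares and exact Clopper-Pearson intervals for RPM ratios, using Python 3.11.15, scipy 1.17.1, numpy 2.4.6 and pandas 2.3.3. TMM factors came from edgeR 4.0.16, used for scaling only, since 1 library per group allows no count model. The share and ratio calls were tested on simulated data.

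Named pairs were the 6 largest rises and up to 4 falls in gap share, the 4 largest rises in body share (each with 100 reads or more in each library), the 5 lowest and 5 highest second genes behind a first gene with a higher gap share (with 100 reads or more in the library where they are higher), the 3 pairs with the most gap reads, and examples from the lists. The members and lists were chosen with earlier results of these data known. The design compares 1 library with 1, and the labels say nothing of separate cultures.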

Additional observations from a re-analysis of the deposited data

Results flagged for a closer look

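Reads on the contig MTR lay outside the gene regions used in the comparisons. They came to 18.4 RPM (of all reads) in nmt1-SEB1 against 6.66 in wild type, counting 62 and 18 reads. The contig with the most reads outside the chromosomes went the other way, with 2958 reads against 4126 (876 and 1527 RPM).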

How the results depend on the processing

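Over 15 alternatives, 242 of 243 values of the 21 named results kept their direction and call, and 99 of 111 counts and medians stayed within 1.5 times or within their interval. Part of the first count was fixed in advance. A change of the gap limit, the overlap rule, the read minimum or a call threshold leaves a named gene's value as it was. Values that became untested or gave no ratio were not counted. The exception among the named genes was tpp2, at a log2 ratio of -2.76 with a 200 nt window past the second gene. In that window, which leaves out its main position, pil2 gave no ratio. Named values that moved by over 1.5 times with their direction and call kept were those of pex14 and rps2802 with only coding genes ending the windows (-2.58 and -2.31), SPBP8B7.26 and SPAC6B12.04c without positions before A-rich sequence (4.25 and 6.91), and rpp101 with the gap counted from 25 nt past the end (48.4 points). With gaps of 250 nt or less there are fewer pairs: 256 of 565 first genes had a higher gap share and 1 a lower one, body share was higher in 129 and lower in 39 of 684 second genes, reads past the stop codon were higher in 181 and lower in 132 of 760, and body reads were higher in 191 and lower in 35 of 336. With gaps up to 1000 nt, 7 of 1299 first genes (0.539%) had a lower gap share. Neither gap limit changes the shares over all coding genes. They stayed at 51.4% higher and 0.541% lower for gap share and at 10.2% and 8.36% for body share. For reads past the stop codon they were 25.3% and 18.8%, and for body reads 36.1% and 19.7%. With a minimum of 50 reads, body reads were higher in 191 (63.0%) and lower in 34 (11.2%) of 303 second genes. Over all coding genes the shares were then 42.3% and 20.8%. With 20 points, body share was lower in 50 of 1223 (4.09%), against 5.51% over all coding genes. Scaling by TMM gave 291 higher (21.4%) and 277 lower (20.4%) second genes past the stop codon, against 22.2% and 21.4% over all coding genes. Scaling by the median of ratios gave 285 (21.0%) and 282 (20.8%), against 21.9% and 21.7%. The scalings moved all log2 ratios by -0.13 or -0.14. Leaving out positions beside genomic A runs gave 524 higher gap shares of 1025 (51.1%) and 206 higher body shares of 1212 (17.0%). Over all coding genes these shares were 51.3% and 10.2%. No paired analysis was possible because each group has 1 library, and no replicate could be left out. Depth limits the body reads most: 563 of 1507 second genes reached 20 of them.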
